A study of Rattus norvegicus with 96 samples.

Results

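The 6 genes described here, Ppp1r1b, Adora2a, Rgs9, Pde10a, Gpr6 and Foxp1, mark the projection neurons of the striatum. They were taken as every probe set whose annotation names 1 of these symbols alone, which gave 13 probe sets out of 31042 and 6 genes out of 14217 with such a probe set. Ppp1r1b and Gpr6 had 1 probe set each, Adora2a, Rgs9 and Pde10a had 2 each, and Foxp1 had 5. The tissue on the 96 arrays was the central nucleus of the amygdala of rats from 5 pairs of lines, each pair bred for high or low alcohol consumption, with 1 array per animal. The preferring lines were HAD1 with 9 arrays, HAD2, P and AA with 10 each, and sP with 8. Their non-preferring partners were LAD1, LAD2, NP and ANA with 10 arrays each, and sNP with 9. The labels give no treatment, age, sex, alcohol exposure or hybridisation date, so line and line pair are the only factors. Each line is a closed breeding population, so p-values over animals measure the spread within a line and not how often selection gave a result.

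The striatum is built largely of GABAergic medium spiny neurons, whose responses to dopamine and adenosine run through cyclic AMP and protein kinase A. One class of these cells, the indirect pathway neurons, carries dopamine D2 and adenosine A2a receptors, and the other, the direct pathway neurons, carries dopamine D1 receptors. The central amygdala lies close to the caudal striatum and is itself a GABAergic, striatum-like structure, and a tissue punch can hold both. The questions asked here are how the 6 genes vary together from array to array and whether they differ between the lines of a pair. In bulk tissue, fewer cells of a type and less RNA per cell cannot be told apart.

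Adora2a encodes the adenosine A2a receptor, and Gpr6 a receptor coupled to stimulatory G proteins that is also characteristic of indirect pathway neurons. Ppp1r1b encodes DARPP-32, which inhibits protein phosphatase 1 once protein kinase A has phosphorylated it. Rgs9 encodes a regulator of G protein signalling that shortens signals of dopamine receptors, and Pde10a encodes a phosphodiesterase that breaks down cyclic AMP and cyclic GMP. Foxp1 encodes a forkhead transcription factor of striatal projection neurons that cortical neurons also express. By the RefSeq annotation of GRCr8, Ppp1r1b and Rgs9 lie on chromosome 10, Adora2a and Gpr6 on chromosome 20, Pde10a on chromosome 1 and Foxp1 on chromosome 4.

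RefSeq promoter windows (GRCr8, 250 bases before to 50 bases after the start site) matched 4 of the 6 genes by symbol, in 5 windows. They are shown as background, and whether they bear on how the genes vary across arrays was not tested. Capitals mark the half-site of the cyclic AMP response element, TGACG or CGTCA, and the forkhead motif TGTTTAC or GTAAACA, read on both strands. Each window is written 5′ to 3′ on the strand of its gene, and all 4 genes shown lie on the minus strand.
Gpr6, chr20:46075202-46075501: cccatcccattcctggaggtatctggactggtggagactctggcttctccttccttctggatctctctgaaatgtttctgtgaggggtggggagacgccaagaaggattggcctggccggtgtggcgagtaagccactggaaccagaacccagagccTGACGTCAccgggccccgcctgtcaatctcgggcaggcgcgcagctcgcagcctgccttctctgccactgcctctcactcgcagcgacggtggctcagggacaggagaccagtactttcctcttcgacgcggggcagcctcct
Pde10a, chr1:54765619-54765918: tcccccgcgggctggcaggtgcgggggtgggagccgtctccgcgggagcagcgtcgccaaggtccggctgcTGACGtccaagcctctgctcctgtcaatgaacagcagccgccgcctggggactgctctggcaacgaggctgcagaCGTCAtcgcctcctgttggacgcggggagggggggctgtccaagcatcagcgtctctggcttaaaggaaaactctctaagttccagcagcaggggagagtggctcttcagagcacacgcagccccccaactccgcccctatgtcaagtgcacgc
Foxp1, chr4:133353231-133353530: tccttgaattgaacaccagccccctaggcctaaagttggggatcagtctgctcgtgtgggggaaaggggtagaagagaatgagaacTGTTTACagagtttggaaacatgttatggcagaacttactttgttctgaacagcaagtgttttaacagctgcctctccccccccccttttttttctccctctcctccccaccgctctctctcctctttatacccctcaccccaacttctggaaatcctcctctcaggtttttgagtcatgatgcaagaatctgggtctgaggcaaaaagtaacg
Rgs9, chr10:94770338-94770637: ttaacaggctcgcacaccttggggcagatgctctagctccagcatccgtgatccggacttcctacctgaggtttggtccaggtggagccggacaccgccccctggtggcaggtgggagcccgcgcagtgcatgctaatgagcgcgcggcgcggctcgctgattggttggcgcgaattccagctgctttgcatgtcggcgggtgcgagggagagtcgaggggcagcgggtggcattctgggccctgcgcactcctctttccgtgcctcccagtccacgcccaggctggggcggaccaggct
The Gpr6 window held 1 full response element, TGACGTCA, whose first base lies at -93 from the start site and which overlaps both half-sites counted there. The full element occurs in 1.83% of 33469 RefSeq windows of the same length, and a half-site in 21.2%. The Pde10a window shown held 2 half-sites, with first bases at -179 and -104, and no full element. The Foxp1 window held 1 forkhead motif at -164, a motif found in 3.78% of all windows, and 1 TATA match (TATAAA or TTTATA) at -39, found in 14.2%. The Rgs9 window held neither marked motif and 2 GC boxes (GGGCGG or CCGCCC), found in 33.1% of all windows. The other Pde10a window, chr1:54501157-54501456, held 2 GC boxes and neither marked motif. A match is a run of letters and not a measured site.

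Several properties of the arrays bear on what follows. The median log2 value of an array lay between 7.77 and 8.02. GAPDH control probe sets at the 3′ and 5′ ends of the transcript report on RNA integrity and labelling length, and their log2 ratio, 3′ over 5′, averaged 3.33 to 4.09 in the 4 HAD and LAD lines and 0.20 to 0.43 in the 6 others. On 100 probe sets that best separate the lines of a pair, scored without the array in question and without the 6 genes, 15 arrays lay on the side of the other line: HAD1 28, LAD1 37, P 1, P 9, NP 1, NP 9, AA 15, AA 17, AA 19, ANA 16, ANA 18, sP 2, sP 9, sNP 8 and sNP 9. Because these arrays were picked from the same data, leaving them out tends to widen line differences by construction. Over all probe sets, sP 2 and sNP 2 came out almost alike, their differences having an SD of 0.09 on the log2 scale, compared with 0.165 for sP 6 and sNP 8. Part of the list of central amygdala genes was bright: line means ran between 9.02 and 13.29 for Sst, between 9.01 and 9.81 for Prkcd and between 10.21 and 11.65 for Nts, against a median of 7.89 over all probe sets. Calcrl, Avpr1a and the dimmest gene, Oxtr, lay below that median in every line, with line means of at most 6.07, 6.17 and 5.02. The lowest line means of Dlk1 (6.06), Crh (6.75) and Wfs1 (7.79) also lay below it, and the rest of the list stayed above it. The array LAD1 36 is named LAD1 in its title and HAD1 in its source name, and was counted as LAD1. No detection calls were used, so a dim probe set was not told apart from background.

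The 6 genes had their lowest line means in the 4 HAD and LAD lines, and in each gene every HAD or LAD line mean lay below every mean of the 6 other lines. Levels are log2 values of the brightest probe set of a gene, given as mean ± SD over the arrays of a line. Adora2a averaged 7.90 ± 0.64 in HAD1, 8.43 ± 0.51 in LAD1, 8.41 ± 0.61 in HAD2 and 8.42 ± 0.62 in LAD2. It averaged 10.95 ± 0.67 in P, 11.09 ± 0.99 in NP, 10.52 ± 1.01 in AA, 11.16 ± 0.54 in ANA, 11.61 ± 0.63 in sP and 11.32 ± 0.44 in sNP. The lines thus fell into a low set and a high set with no line mean between 8.43 and 10.52. For Rgs9 the low set ran from 7.58 in LAD1 to 8.65 in LAD2, and the high set from 10.27 in AA to 10.82 in sP. Across the 39 HAD and LAD arrays the highest Rgs9 value was 8.97, below the lowest of the 57 others, 9.41. The 2 sets thus did not overlap for the brightest Rgs9 probe set. They did overlap for the dimmer one, where the other lines reached down to 4.812, below the lowest HAD or LAD value of 5.476. The second Pde10a probe set and Foxp1 probe sets 1373804_at and 1379651_at also separated the 2 sets, as did 1394691_at in the opposite direction. The share of all probe sets that do so was not computed, so this separation cannot be called particular to these genes.

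The gap between the 2 sets of lines differed in size among the genes. The mean of the HAD and LAD lines minus the mean of the others was -2.82 log2 units for Adora2a, -2.44 for Rgs9, -1.88 for Ppp1r1b, -1.33 for Foxp1, -0.94 for Gpr6 and -0.82 for Pde10a, against a median of 0.26 over all probe sets. The middle 90% of all probe sets ran from -1.236 to 1.233, so Gpr6 and Pde10a lay within that range and the other 4 genes below it. The second Pde10a probe set lay at -2.11, more negative than the brightest one, and the dimmest probe set of Foxp1 lay at 1.48, opposite to the other 4, which ran from -1.13 to -2.96. The GAPDH ratio separates the same sets of lines, so the part of the lines and that of RNA quality or labelling cannot be told apart, and no test was made between these sets of lines.

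The order of lines was alike among the genes at its upper end, and most neighbouring steps were small. The sP line had the highest mean of all 10 lines for each of the 6 genes, at 12.16 ± 0.53 for Ppp1r1b, 11.65 ± 0.58 for Pde10a, 8.78 ± 0.47 for Gpr6 and 11.14 ± 0.41 for Foxp1. The AA line had the lowest mean of the 6 non-HAD, non-LAD lines for 5 genes, at 11.53 ± 0.86 for Ppp1r1b and 10.47 ± 0.70 for Foxp1, and the P line had it for Pde10a, at 11.02 ± 0.64. Of the 9 steps between neighbours in the order of line means, 9 were within the larger SD of both lines for Pde10a and Gpr6 and 8 for Ppp1r1b, Adora2a and Foxp1. For Rgs9 it was 6 of 9, the exceptions being the steps from AA to LAD2, from LAD2 to HAD2 and from HAD2 to HAD1.

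**Figure D1:**
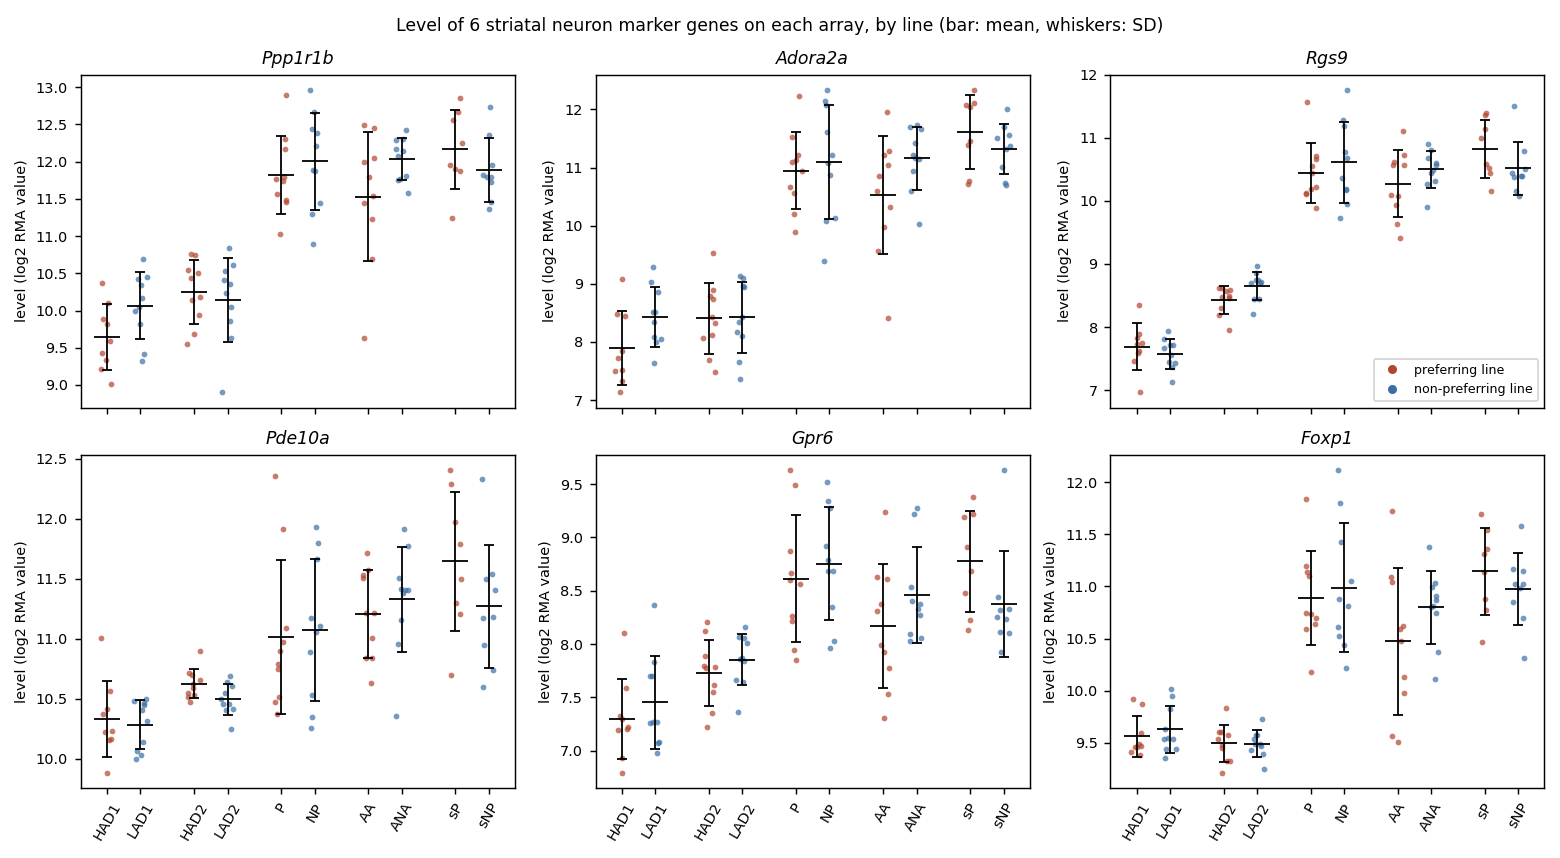
Level of each gene (log2 RMA value of its brightest probe set, vertical axis) on every array, by line, with the preferring line left of its partner in each pair. Points are arrays, bars are line means and whiskers are SD; the HAD and LAD lines sit below the other 6 lines in every panel, and the lines of a pair overlap in every panel.

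Within a line the 6 genes varied far more than a typical probe set. The SD within lines was 0.69 log2 units for Adora2a, 0.54 for Ppp1r1b, 0.46 for Gpr6, 0.43 for Pde10a, and 0.41 for Rgs9 and for Foxp1, against a median of 0.167 over all probe sets. The brightest probe sets of the 6 genes exceeded between 96% and 99.5% of all probe sets in this SD, and the further probe sets of Adora2a, Rgs9, Pde10a and 3 of Foxp1 exceeded between 94.9% and 98.0%. The dim Foxp1 probe set 1394691_at was ordinary in this respect, with an SD of 0.173, larger than 53.6% of all. For Ppp1r1b, Adora2a and Foxp1 the SD was largest in AA, where Ppp1r1b ran from 9.63 to 12.49 with a median of 11.66 and Adora2a from 8.40 to 11.96 with a median of 10.73. For Rgs9 it was largest in NP, at 0.647, and for Pde10a and Gpr6 in P, at 0.642 and 0.596. The spread of Pde10a was smallest in HAD2, where it ran from 10.48 to 10.90 with a median of 10.61.

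The genes varied together. With each value centred on the mean of its line, Pearson's r between 2 genes over 96 arrays ran from 0.662 for Gpr6 and Foxp1 to 0.856 for Rgs9 and Pde10a, with a median of 0.772 over the 15 gene pairs. Spearman's rho ran from 0.605 to 0.839. Each of the 15 correlations had a permutation p of 1e-05 for both coefficients, the smallest that 100000 permutations within lines can give, and 1e-05 after adjustment over the 15 pairs. Without the 2 arrays farthest from the median of the first gene, r ran from 0.638 to 0.832, so the relation did not rest on those arrays. Between the receptors, r was 0.739 for Adora2a and Gpr6, and between the signalling genes it was 0.803 for Ppp1r1b and Rgs9 and 0.772 for Ppp1r1b and Pde10a. The first component of the 6 standardised genes held 80.6% of their variance, and the second 6.7%.

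Co-variation was present within each line pair and was weakest in HAD2 and LAD2. The median r was 0.703 over 19 HAD1 and LAD1 arrays, 0.83 over 20 P and NP arrays, 0.847 over 20 AA and ANA arrays and 0.825 over 17 sP and sNP arrays, and in these 4 pairs each of the 15 Pearson correlations passed the permutation test. Of the Spearman correlations, that of Rgs9 and Foxp1 in HAD1 and LAD1 did not pass (rho = 0.451, adjusted permutation p = 0.0601). In HAD1 and LAD1, r ran from 0.481 to 0.809, and from 0.323 to 0.814 without the 2 farthest arrays, of which HAD1 25 was one for several genes. In the 20 HAD2 and LAD2 arrays the median was 0.509, the range was -0.276 to 0.816, and 8 of 15 passed. Foxp1 was apart from the other genes there: its r was 0.194 with Ppp1r1b, 0.199 with Adora2a, 0.294 with Pde10a, -0.062 with Gpr6 and -0.276 with Rgs9, and 0 of these 5 passed (adjusted permutation p of 0.296 to 0.812). The negative signs rested on 2 arrays: without LAD2 11 and HAD2 6, r was 0.334 with Gpr6 and 0.089 with Rgs9, and Spearman's rho over all 20 arrays was 0.12 and 0.018. Without the 2 farthest arrays, r with Ppp1r1b was -0.004. Ppp1r1b and Adora2a still varied together in that pair (r = 0.767, adjusted permutation p = 0.00045), as did Rgs9 and Gpr6 (r = 0.816, adjusted permutation p = 0.0003). The SD of the mean of the 6 genes within a line was also smallest in HAD2, at 0.233, and LAD2, at 0.274, against 0.647 in AA. Whether the weaker correlations of Foxp1 in this pair differ from those in the other pairs was not tested.

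Probe sets of the same gene followed each other, with exceptions among the dim ones. The 2 probe sets of Adora2a correlated at 0.846, those of Pde10a at 0.876 and those of Rgs9 at 0.661. Among 4 of the 5 Foxp1 probe sets, r ran from 0.897 to 0.927, whereas 1394691_at correlated with them at 0.561 to 0.644. Over the 65 combinations of probe sets from different genes the median was 0.68, with a range of 0.363 to 0.856. With the next brightest probe set of each gene in place of the brightest, where there was one, the median over the 15 gene pairs was 0.671.

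Single arrays stood out in all 6 genes at once. The 6 genes all lay above the mean of their line on 24 arrays and all below it on 22, and they were on both sides on the other 50. The mean deviation of the 6 genes was highest on P 2, at 1.13 log2 units above the P mean, followed by NP 3 at 0.99, sNP 6 at 0.91, AA 17 at 0.88 and HAD1 25 at 0.73. On P 2 the deviations ran from 0.95 for Foxp1 to 1.346 for Pde10a. The lowest deviations were those of AA 1 at -1.20, NP 1 at -0.89, sP 9 at -0.78, P 6 at -0.75 and AA 5 at -0.68. On AA 1 they ran from -0.57 for Pde10a to -2.12 for Adora2a, so this array was low in each of the genes but unevenly so. The mean of the other striatal genes deviated by 0.34 to 0.69 on the 5 highest arrays and by -0.60 to -0.24 on the 5 lowest. Among the highest arrays, the mean of the central amygdala genes was below its line mean on P 2 (-0.505), NP 3 (-0.691), sNP 6 (-0.122) and AA 17 (-0.07). It was above on HAD1 25 (0.391). Among the lowest, it was above on AA 5 (0.174), P 6 (0.411), sP 9 (0.495) and NP 1 (0.218), and below on AA 1 (-0.253). Its sign was thus mostly opposite to that of the 6 genes on these arrays, of which only HAD1 25 came from a HAD or LAD line. In HAD2 and LAD2 the 2 means often had the same sign. Examples are HAD2 6 (-0.32 for the 6 genes, -0.633 for the central amygdala genes) and LAD2 17 (0.277 and 0.28). On HAD2 8 the signs were opposite (-0.068 and 0.094). Over all arrays, r between the mean of the central amygdala genes and that of the 6 genes was -0.135, which does not describe each line pair. The part of these other lists in the result was not tested.

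The range of the mean deviation within a line was 2.08 log2 units in AA, which is 4.24-fold, 1.89 in P, 1.88 in NP, 1.443 in sNP and 1.381 in sP. It was 1.07 in ANA, 1.01 in HAD1, 1.003 in LAD1, 0.79 in LAD2 and 0.60, or 1.52-fold, in HAD2. Of the 10 extreme arrays named above, AA 17 at the high end and NP 1 and sP 9 at the low end were among the 15 arrays on the side of the other line. The nearly identical arrays sP 2 and sNP 2 had 10.71 and 10.73 for Adora2a, and 11.95 on both for Ppp1r1b. Without the 15 arrays the median r over the 15 gene pairs was 0.75, and without sP 2 and sNP 2 it was 0.772.

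**Figure D2:**
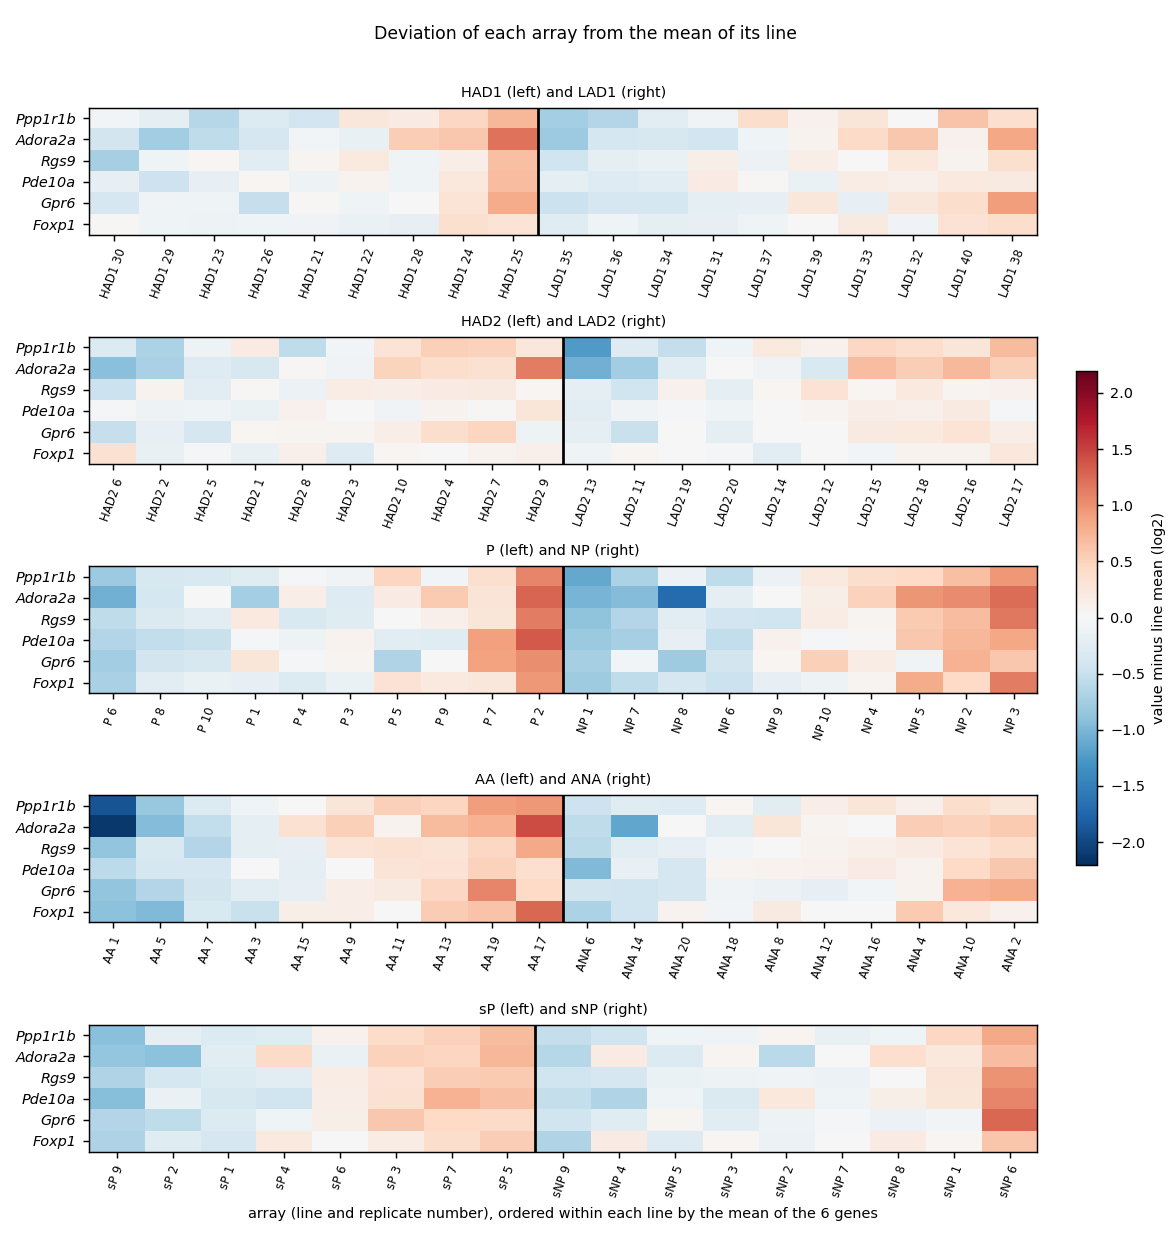
Deviation of each array (columns, ordered within each line by the mean of the 6 genes) from the mean of its line, in log2 units by colour, for the 6 genes (rows) in the 5 line pairs, with the preferring line on the left. Many columns have 1 colour from top to bottom, for example in NP, AA and sP. In HAD2 and LAD2 the row of Foxp1 does not follow the row of Adora2a.

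The deviation of the 6 genes had correlations near 0 with both quality measures over all arrays. Its r with the line-centred GAPDH ratio was -0.051 over 96 arrays (permutation p = 0.531; Spearman's rho = -0.021, permutation p = 0.83; -0.013 without the 2 farthest arrays). With the array median it was 0.019 (permutation p = 0.853; Spearman's rho = -0.046, permutation p = 0.661; -0.048 without the 2 farthest). Within line pairs the largest value was -0.551 for the GAPDH ratio in the 17 sP and sNP arrays (permutation p = 0.0196, adjusted p = 0.235 over 12 relations; Spearman's rho = -0.64, permutation p = 0.00446), which became -0.369 without the 2 farthest arrays. In the other 4 pairs r with the GAPDH ratio was -0.206 in HAD1 and LAD1, -0.313 in HAD2 and LAD2, 0.215 in P and NP and 0.441 in AA and ANA, with permutation p from 0.102 to 0.434. With the GAPDH ratio regressed out, the median r between the genes was 0.764.

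The genes whose pattern over the 96 arrays was most like that of the 6 included 5 from the list of other striatal genes. Likeness is Pearson's r of line-centred values with the mean of the 6 genes, a description in which the points share the arrays, and it is given without a test. The highest was Pde1b, a calcium-dependent phosphodiesterase, at 0.939. It was followed by Neu2, a cytosolic sialidase, at 0.919, Itpr1, the calcium channel opened by inositol trisphosphate, at 0.896, Nexn, an actin-binding protein, also at 0.896, and Arpp21, a phosphoprotein regulated by cyclic AMP, at 0.887. Then came Gng7, a G protein gamma subunit, at 0.877, Tbc1d10c, an inhibitor of calcineurin and Ras, at 0.87, Hpca, a neuronal calcium sensor, at 0.858, Rarb, a retinoic acid receptor, at 0.835, and Adcy5, the main adenylyl cyclase of the striatum, at 0.819.

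These values lay far out in the distribution over genes. Over 14211 other genes the median r was -0.025, the 95th percentile 0.354 and the 99th percentile 0.608, and 63 genes exceeded 0.7. For comparison, each of the 6 genes correlated with the mean of its 5 companions at 0.826 (Gpr6) to 0.894 (Rgs9). The lowest values belonged to Gdpd2, of a glycerophosphodiesterase family, at -0.653, Cpeb1, which binds polyadenylation elements of mRNAs, at -0.625, and Sqle, an enzyme of cholesterol synthesis, at -0.619. Within line pairs r ranged from 0.573 to 0.985 for Pde1b, with the lowest value in HAD2 and LAD2, and from -0.815 to -0.496 for Gdpd2. For Cpeb1 it ranged from -0.789 to 0.005, so that gene did not follow the 6 in every pair.

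Each gene also had its own nearest neighbours. Ppp1r1b was closest to Arpp21 (r = 0.882) and Nexn (0.856), and Adora2a to Nexn (0.857) and Smad3, a transducer of TGF-beta signals (0.843). Rgs9 was closest to Pde1b (0.936) and Neu2 (0.898). Pde10a had Tbc1d10c (0.88) and Pde1b (0.85), and Gpr6 had Tbc1d10c (0.832) and Neu2 (0.807). Foxp1 had Gucy1a1, a subunit of soluble guanylyl cyclase (0.9), and Filip1, a filamin-binding protein (0.895), as the 2 nearest.

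Among marker lists, other striatal genes had the highest median r with the mean of the 6 genes, and the lists of cyclic AMP signalling and of intercalated amygdala neurons came next. Of 22 other striatal projection neuron genes measured, 17 had r over 0.5, with a median of 0.641. Dopamine receptors of both classes of neurons were among them, at 0.773 for Drd2 and 0.742 for Drd1, as was the striatal G protein alpha subunit Gnal at 0.735. At the low end were Drd3 at 0.11, a receptor of the ventral striatum, and Isl1 at -0.042, a transcription factor of direct pathway neurons. Drd3 was dim, with line means of 4.57 to 5.07, brighter than only 4.83% of all probe sets, so its r says little. The list shares Pde1b, Arpp21, Gng7, Rarb and Adcy5 with the 10 most alike genes.

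Of the 25 genes of cyclic AMP and DARPP-32 signalling, 8 exceeded 0.5 and the median was 0.347. Among those 8, Pde1b, Gng7, Adcy5 (0.819) and Gnal (0.735) are also on the list of other striatal genes. The highest were Pde1b and Gng7, and the lowest were Prkar1b at -0.125 and Prkaca at -0.261, subunits of protein kinase A that neurons express broadly. Of 6 genes of the intercalated neurons of the amygdala, whose median was 0.382, 3 exceeded 0.5, and these 3, Drd1, Meis2 (0.587) and Foxp2 (0.541), are also on the striatal list. Its other members had 0.223 for Tshz1, 0.064 for Pax6 and 0.001 for Oprm1.

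Of 13 central amygdala genes, 0 exceeded 0.5, with a median of -0.088. Wfs1 was highest at 0.451, followed by Calcrl at 0.176, while Avpr1a had -0.35 and Pnoc -0.41. None of 8 genes of cortical and basolateral excitatory neurons exceeded 0.5 (range -0.115 for Tbr1 to 0.084 for Emx1), and the same held for 6 pallidal and basal forebrain genes (-0.224 for Npas1 to 0.219 for Pvalb). Medians were -0.135 for 11 oligodendrocyte genes, -0.111 for 8 astrocyte genes, -0.125 for 8 microglial genes, -0.011 for 7 endothelial and pericyte genes and 0.054 for 4 choroid plexus genes, with 0 genes over 0.5 in each. In these lists the values ran from -0.303 for Aqp4, an astrocyte water channel, to 0.217 for Slc1a2, an astrocyte glutamate transporter. Some of the lists themselves varied widely within lines: the SD of the list mean was 0.559 for the cortical list and 0.619 for the pallidal list, against 0.439 for the 6 striatal genes.

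**Figure D3:**
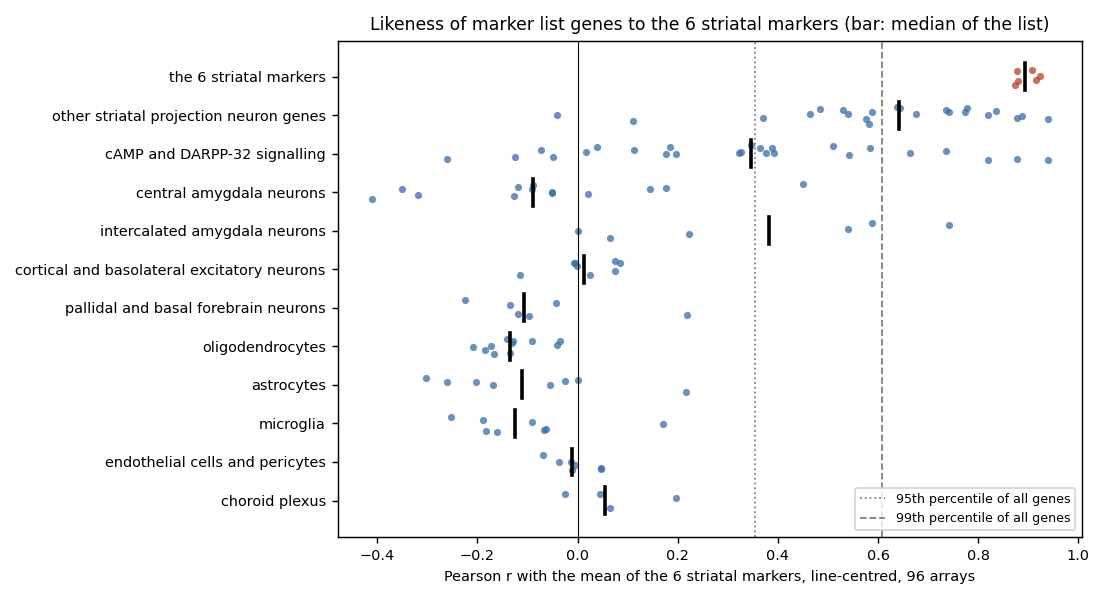
Pearson's r (horizontal axis, line-centred values over 96 arrays) of each measured gene of a marker list with the mean of the 6 striatal markers, by list; bars are list medians, and the broken lines mark the 95th and 99th percentiles over all genes, 0.354 and 0.608. The 6 markers contribute to that mean themselves; the other striatal genes have a median of 0.641 and the central amygdala genes one of -0.088.

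The comparison the study was designed for, preferring minus non-preferring line, gave no called difference for the 6 genes. Of their 13 probe sets, 0 passed limma's test at an adjusted p under 0.05 in each of the 5 line pairs. The share of all 31042 probe sets that passed was 0.963% for HAD1 and LAD1, 4.09% for HAD2 and LAD2, and 0% for P and NP, for AA and ANA, and for sP and sNP, so few or no calls are to be had among 13 probe sets at those shares. At an unadjusted p under 0.05 it was 4 of 13 in HAD1 and LAD1, where the background share was 11%, 3 of 13 in HAD2 and LAD2 (16.4%), 0 of 13 in P and NP (4.91%), 0 of 13 in AA and ANA (4.92%) and 1 of 13 in sP and sNP (4.32%). The probe sets are not independent, since the genes vary together. In each pair and for each of the 13 probe sets, the values of the 2 lines overlapped.

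In HAD1 against LAD1, Adora2a and Ppp1r1b had the most negative differences. Adora2a had a lowest value, median and highest value of 7.13, 7.73 and 9.09 in HAD1, against 7.64, 8.43 and 9.29 in LAD1, a difference of -0.54 ± 0.24 (SE; 95% interval -1.02 to -0.050; limma adjusted p = 0.391). Ppp1r1b had 9.01, 9.59 and 10.38 in HAD1, against 9.32, 10.11 and 10.69 in LAD1, a difference of -0.43 ± 0.18 (95% interval -0.81 to -0.049; limma adjusted p = 0.372). In both genes the HAD1 median was below the LAD1 median and the ranges overlapped over most of their length. The second Adora2a probe set did not share the difference of the first, at 0.02 ± 0.09. By their brightest probe sets, the other 4 genes lay between -0.16 ± 0.17 for Gpr6 and 0.11 ± 0.13 for Rgs9. Among their further probe sets, Foxp1 1380544_at differed by -0.23 ± 0.10 (limma adjusted p = 0.410) and 1373804_at by -0.12 ± 0.06 (limma adjusted p = 0.437). The second Pde10a probe set differed by 0.24 ± 0.13 (limma adjusted p = 0.530).

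In HAD2 against LAD2, the pair with the most calls over all probe sets, the 6 genes differed little. Rgs9 had 7.95, 8.49 and 8.62 in HAD2 and 8.21, 8.71 and 8.97 in LAD2 (lowest, median, highest), a difference of -0.23 ± 0.10 (limma adjusted p = 0.223). Pde10a had 10.48, 10.61 and 10.90 in HAD2 and 10.25, 10.48 and 10.69 in LAD2, a difference of 0.13 ± 0.06 (limma adjusted p = 0.266). Both genes act in G protein and cyclic nucleotide signalling, and their differences had opposite signs. Ppp1r1b differed by 0.11 ± 0.20, Adora2a by -0.02 ± 0.25, Gpr6 by -0.12 ± 0.12 and Foxp1 by 0.0019 ± 0.071. The third Foxp1 probe set, 1373804_at, differed by 0.21 ± 0.09 (limma adjusted p = 0.247).

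In P against NP, each of the 6 differences was negative and smaller than its standard error. Ppp1r1b differed by -0.19 ± 0.24, Rgs9 by -0.16 ± 0.24, Adora2a by -0.15 ± 0.35, Gpr6 by -0.14 ± 0.23, Foxp1 by -0.10 ± 0.22 and Pde10a by -0.06 ± 0.25 (limma adjusted p = 1 for each). For Adora2a the lowest value, median and highest value were 9.89, 11.02 and 12.23 in P, against 9.40, 11.15 and 12.33 in NP. The NP range contained the P range. The 95% intervals of the 6 differences ran from -0.87 to 0.57 log2 units in all, so that differences of that size in either direction were not resolved with 10 arrays a line.

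In AA against ANA, the 6 differences were again all negative. Adora2a had 8.40, 10.73 and 11.96 in AA, against 10.02, 11.19 and 11.73 in ANA, a difference of -0.64 ± 0.33 (95% interval -1.32 to 0.043; limma adjusted p = 0.983). Ppp1r1b had 9.63, 11.66 and 12.49 in AA, against 11.58, 12.11 and 12.43 in ANA, a difference of -0.50 ± 0.26 (limma adjusted p = 0.983). AA held both the highest and the lowest value of the pair in these 2 genes, and its SD was larger than that of ANA for 5 of the 6 genes, for example 0.86 in AA and 0.29 in ANA for Ppp1r1b. For Pde10a the SD was 0.367 in AA and 0.435 in ANA. Foxp1 differed by -0.33 ± 0.23, Gpr6 by -0.29 ± 0.21, Rgs9 by -0.23 ± 0.17 and Pde10a by -0.12 ± 0.17. Without AA 1 alone the difference was -0.403 for Adora2a and -0.29 for Ppp1r1b, and without ANA 2 it was -0.056 for Pde10a. The median of the 6 differences was -0.310, against 0.002 over all genes, and -0.560 without the 5 arrays of this pair on the side of the other line, 3 of them AA and 2 ANA. Of these 5, AA 17 and AA 19 had deviations of the 6 genes of 0.88 and 0.72 from the AA mean, and the other 3 lay between -0.056 and 0.081.

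In sP against sNP, the 6 differences were all positive. Gpr6 had 8.13, 8.80 and 9.38 in sP, against 7.93, 8.26 and 9.63 in sNP, a difference of 0.40 ± 0.21 (95% interval -0.039 to 0.85; limma adjusted p = 0.9998). Pde10a had 10.70, 11.65 and 12.41 in sP, against 10.60, 11.18 and 12.34 in sNP, a difference of 0.38 ± 0.24. The sP medians were higher in both genes and the ranges overlapped almost wholly. Rgs9 differed by 0.31 ± 0.19, Adora2a by 0.29 ± 0.23, Ppp1r1b by 0.28 ± 0.21 and Foxp1 by 0.17 ± 0.17, and the dim second probe set of Rgs9 by 0.50 ± 0.22. The GAPDH ratio differed between these lines too, at 0.30 ± 0.03 in sP and 0.37 ± 0.05 in sNP (SD), and with that ratio as a covariate the 6 differences ran from -0.102 to -0.016, so their sign depended on it. Without sP 2 and sNP 2 they ran from 0.191 for Foxp1 to 0.469 for Gpr6.

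**Figure D4:**
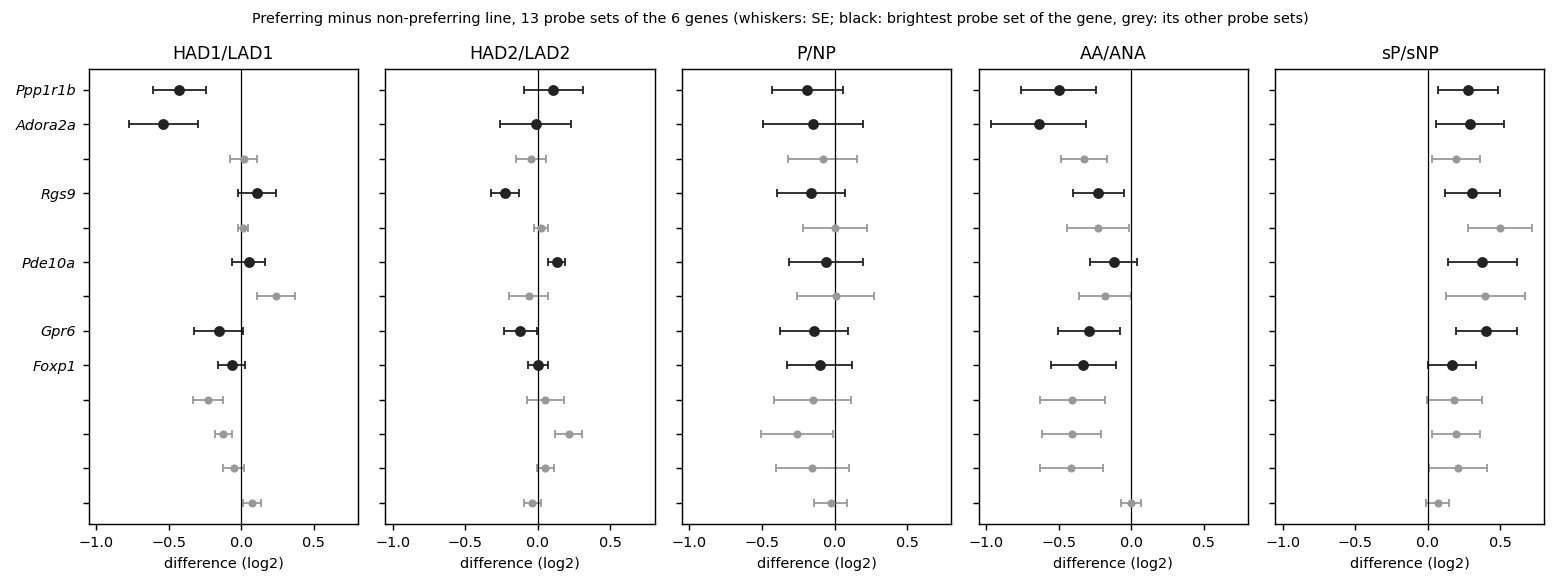
Difference between the lines of each pair (horizontal axis, log2, preferring minus non-preferring; whiskers are SE) for the 13 probe sets of the 6 genes, with the brightest probe set of each gene in black. All 6 black points lie left of 0 in P against NP and in AA against ANA and right of 0 in sP against sNP, and none passed the test.

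Because the 6 genes vary together, their signs within a pair are not 6 separate observations.

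Over the 5 pairs, no gene had a mean difference past the test. The mean difference was -0.21 ± 0.14 for Adora2a, -0.15 ± 0.11 for Ppp1r1b, -0.07 ± 0.08 for Foxp1, -0.06 ± 0.09 for Gpr6, -0.04 ± 0.08 for Rgs9 and 0.08 ± 0.09 for Pde10a. With animals as replicates, 0 of 13 probe sets passed at an adjusted p under 0.05, where 0.986% of all probe sets did, and 0 of 13 had an unadjusted p under 0.05, where 7.8% did. With the line pair as the replicate, 0 of 13 passed against 0% of all probe sets, and 0 of 13 had an unadjusted p under 0.05 against 3.33%. Adora2a then differed by -0.21 ± 0.13, with a negative sign in 4 of 5 pairs, and Foxp1 by -0.07 ± 0.07, with a negative sign in 3 of 5.

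The 5 differences also did not vary past the test. The F test of whether they vary among pairs called 0 of 13 probe sets at an adjusted p under 0.05, against 4.54% of all probe sets, and 0 of 13 at an unadjusted p under 0.05, against 14.7%. The smallest F test p among the 13 was 0.0612, for Foxp1 probe set 1373804_at. Without the 15 arrays on the side of the other line, a choice made after seeing the data, 2 of 13 passed, both of Foxp1 (1373804_at at an adjusted limma p of 0.0117 and 1379651_at at 0.0349), against 10.5% of all probe sets. At an unadjusted p under 0.05 it was then 10 of 13, with at least 1 probe set of each gene but Pde10a, against 22.1% of all probe sets. Those arrays were picked for likeness to the other line in these same data, so the rise is partly built in. The opposite signs in AA against ANA and in sP against sNP are therefore values and not a called difference between pairs with all arrays in.

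No gene of the other neuronal lists passed in any pair. Over all 14217 genes, 31 passed higher and 66 lower in HAD1 against LAD1, and 305 higher and 228 lower in HAD2 against LAD2. Over all genes 0 passed in P against NP, AA against ANA and sP against sNP. Few or no calls are thus to be had in lists of this size. Of the 22 other striatal genes, 0 passed in any pair; 22 of 22 were positive in sP against sNP, with a median of 0.19, 2 of 22 were positive in AA against ANA, with a median of -0.14, and 3 of 22 in P against NP, with a median of -0.13. Over all genes 41.3% were positive in sP against sNP, 51.0% in AA against ANA and 53.5% in P against NP. On the same arrays, the mean of the striatal list followed the mean of the genes described here (r = 0.909, line-centred values). Its signs within a pair are therefore not separate observations, neither from each other nor from the signs of those genes. Whether the signs of the list in sP against sNP depend on the GAPDH ratio was not tested. Of the 25 cyclic AMP and DARPP-32 genes and the 13 central amygdala genes, 0 passed in any pair. The cortical and basolateral list had 8 of 8 positive differences in AA against ANA, with a median of 0.25, and 7 of 8 in P against NP. In AA against ANA, 0 of 6 pallidal and basal forebrain genes and 1 of 11 oligodendrocyte genes were positive. The mean of the cortical list varied widely within lines (SD 0.559), so its signs are not taken as separate observations either.

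List genes that passed were markers of non-neuronal cells in the HAD and LAD pairs. In HAD1 against LAD1, C1qc (-0.48) and Cx3cr1 (-0.40), both microglial, and the endothelial transporter Abcb1a (-0.67) were lower in HAD1. In HAD2 against LAD2, Cx3cr1 (-0.30) and the endothelial receptor Tek (-0.28) were lower in HAD2, and P2ry12 (0.64), Abcb1a (0.66), the pericyte gene Rgs5 (0.42) and the astrocyte connexin Gjb6 (0.28) were higher. The limma adjusted p of these ran from 4.62e-06 to 0.0403. Their r with the mean of the 6 striatal genes ran from -0.252 for C1qc and -0.202 for Gjb6 to -0.005 for Rgs5. In HAD1 against LAD1 they were 2 of 8 microglial genes and 1 of 7 endothelial and pericyte genes. In HAD2 against LAD2, 1 of 8 microglial genes was higher and 1 lower, and 1 of 8 astrocyte genes was higher. Of 7 endothelial and pericyte genes, 2 were higher and 1 lower there. Whether these shares differ from those over all genes, given above, was not tested.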

How the data were processed

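The 96 Affymetrix arrays (25 ng total RNA each, 2-cycle biotin labelling, per the labels' protocols) came from 10 rat lines. The values are log2 expression deposited by the authors, made by RMA per the submitters' processing notes; for the RMA version and for the set of arrays normalized in 1 run, no statement was found in the labels or headers. The number of arrays limits the precision. After removal of 57 control probe sets, 31042 were tested, of which 20826 had 1 gene symbol, 436 several and 9780 none listed. Differences within a line pair were fitted with limma 3.58.1 (R 4.3.3; lmFit, eBayes with a trend; two-sided; Benjamini-Hochberg over all probe sets, threshold 0.05), with no filter on low values. Correlations used line-centred values of the brightest probe set of a gene and two-sided permutation within lines (Python 3.11.15, numpy 2.4.6, scipy 1.17.1, pandas 2.3.3). The scripts were tested on simulated data. The genes named were the 6, the 10 most and 3 least alike genes, the 2 nearest of each of the 6, and from each list those at its ends, those past the test and a few chosen after their values were seen. The 6 genes and the lists were chosen with earlier results of these data known. Alternatives were other scalings, filters, covariates and array sets.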

Additional observations from a re-analysis of the deposited data

Results flagged for a closer look

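In 2 of 60 groups of a gene and a line, 1 array lay far from the rest by Dixon's test, which chance gives in about 1 of 20 groups. Rgs9 on P 2 was 11.57, with 10.72 on the nearest P array, a gap of 0.506 of the range of P, against a critical value of 0.466. Gpr6 on sNP 6 was 9.63, with 8.44 on the nearest sNP array, a gap of 0.698 of the range, against a critical value of 0.493. Both arrays were also among the 5 with the highest mean deviation of the 6 genes.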

How the results depend on the processing

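No difference of the 13 probe sets, within a pair or averaged over the pairs, passed in any alternative fit. These fits gave 1969 results, each for 1 probe set in 1 alternative. The lowest limma adjusted p among them was 0.0715, for Rgs9 in HAD2 against LAD2 without LAD2 replicate 11. Signs were less stable. With the GAPDH ratio as a covariate the sP against sNP differences were -0.040 for Ppp1r1b, -0.016 for Adora2a, -0.039 for Rgs9, -0.063 for Pde10a, -0.037 for Gpr6 and -0.102 for Foxp1, and Adora2a in HAD2 against LAD2 was 0.027; the cause was not tested. Pde10a in HAD1 against LAD1 was -0.015 with LAD1 36 counted as HAD1. Foxp1 in HAD2 against LAD2 was -0.018 with equal array medians, -0.027 with quantile normalization and -0.053 with array weights. The mean of the other 5 genes as a covariate, chosen after seeing the data, takes out any difference the genes share, whatever its origin; with it, Adora2a and Rgs9 were -0.364 and 0.263 in HAD1 against LAD1, Gpr6 and Foxp1 were 0.037 and 0.021 in HAD1 against LAD1, Adora2a was 0.043 in HAD2 against LAD2, and Adora2a, Pde10a and Foxp1 were 0.028, 0.086 and 0.019 in P against NP. With that covariate Rgs9, Pde10a, Gpr6 and Foxp1 were 0.053, 0.116, 0.016 and 0.003 in AA against ANA, and Ppp1r1b and Foxp1 were -0.037 and -0.069 in sP against sNP. Over the pairs, Rgs9 averaged 0.007 without HAD2 and LAD2 and 0.006 without AA and ANA, Pde10a -0.00017 without sP and sNP, and Foxp1 0.00014 without AA and ANA. With 1 array left out at a time, differences that changed sign ran from -0.141 to 0.087 for Adora2a, -0.036 to 0.033 for Foxp1 and -0.032 to 0.185 for Ppp1r1b in HAD2 against LAD2, from -0.208 to 0.024 for Foxp1 and -0.21 to 0.035 for Pde10a in P against NP, and from -0.034 to 0.107 for Pde10a in HAD1 against LAD1. In AA against ANA they ran from -0.798 to -0.403 for Adora2a, -0.607 to -0.29 for Ppp1r1b, -0.318 to -0.13 for Rgs9, -0.229 to -0.056 for Pde10a, -0.41 to -0.196 for Gpr6 and -0.469 to -0.222 for Foxp1.

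The median correlation of 0.772 was 0.703 in HAD1 and LAD1, 0.509 in HAD2 and LAD2, 0.83 in P and NP, 0.847 in AA and ANA, 0.825 in sP and sNP, and 0.671 with the next probe sets. In HAD2 and LAD2, Rgs9 with Foxp1 was -0.276 and Gpr6 with Foxp1 -0.062 (0.089 and 0.334 without LAD2 11 and HAD2 6), Ppp1r1b with Foxp1 0.194, Adora2a with Foxp1 0.199, Pde10a with Foxp1 0.294, Rgs9 with Pde10a 0.389 and Pde10a with Gpr6 0.457. The F test called 2 probe sets without the 15 arrays on the side of the other line, against 0 with them. Replicate numbers are shared by P and NP and by sP and sNP; 5 of 10 and 3 of 8 same-numbered pairs correlated over 0.1, so the numbers were not taken as pairing. With the replicate block the median difference was -0.146 in P against NP and 0.322 in sP against sNP, with 0 calls over all probe sets in both.

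Over all probe sets, calls in HAD1 against LAD1 numbered 299, and 4 with LAD1 36 counted as HAD1. Leaving out 1 array gave 157 (HAD1 21) to 600 (HAD1 28), with 477 without LAD1 37 and 180 without LAD1 36. They numbered 182 in the brighter probe sets, 78 with 1 probe set per gene, 700 with array weights, 785 in 1 fit of all lines and 796 without the 15 arrays. In HAD2 against LAD2 they numbered 1271, with 831 in the brighter probe sets and 302 higher and 224 lower in HAD2 with 1 per gene. Without the 15 arrays there were 502 in P against NP, 559 in AA against ANA and 542 in sP against sNP, against 0 in each, and 1 fit of all lines gave 168, 203 and 2. The 15 arrays were picked for their likeness to the other line in these same data. Leaving them out therefore raises the calls by construction, and the rise cannot tell hidden differences from that choice. Array weights gave 3 in P against NP and 207 in AA against ANA. The mean over pairs had 306, and 901 without the 15 arrays, 692 with array weights, 125 without HAD2 and LAD2, and 0 with the line pair as the replicate.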
